A study of Mus musculus with 4 samples.

Results

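Fatty acid uptake and activation were followed through 7 listed mouse genes in CD4+ T cells after 72 h of Th17 culture. The genes were Cd36, which encodes a fatty acid uptake receptor, the 5 long-chain acyl-CoA synthetases Acsl1, Acsl3, Acsl4, Acsl5 and Acsl6, and Cpt1a, which encodes the carnitine transferase of the outer mitochondrial membrane. They were listed for their function and selected on earlier results from the same 4 arrays, so their levels and differences are a description and support no test. Every probe set whose annotation names 1 of these genes alone was used. Of the 7 genes, 6 had such a probe set, 15 in all, and Acsl1 was not analysed here. The 6 genes stand among 18194 with a probe set of their own. All 6 passed the filter on low values (a highest level above 6.20, the median of all values, taken as the background level), as did 12440 genes in all, but Cd36 and Acsl6 passed it only through the arrays on which they were high.

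The study asked what the transcription factors STAT3 and STAT5 contribute to gene expression in these cells, with 4 cultures and 1 array each. STAT5-deficient cells carried a floxed Stat5 locus deleted by Cre under the Cd4 promoter, and STAT5 wild-type cells carried the floxed locus without Cre. Both received IL-2 at 100 IU/ml, the cytokine that activates STAT5. STAT3-deficient cells (floxed Stat3 with the same Cre) and STAT3 wild-type cells (floxed Stat3, no Cre) were instead given an antibody that neutralises IL-2, at 10 µg/ml. All cells came from C57BL/6J mice with the OT2 T cell receptor transgene and were sorted as naive (CD44-negative, CD62L-positive) cells of lymph nodes and spleen. Antibodies to CD3, CD28 and IL-4, TGF-β at 2 ng/ml and IL-6 at 20 ng/ml were shared by all cultures. The Cd4 promoter is active in the thymus, so deletion precedes the culture and is not limited to Th17 cells. The genotype label of both deficient samples ends in the words for wild type, against the title, and the ages and numbers of mice are not given. With 1 array per group there is no error estimate and no p-value. Values are deposited log2 levels, a difference of 1 is a 2-fold change, and a gene is called higher or lower at that size.

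Long-chain fatty acids enter cells partly through membrane proteins such as CD36. Acyl-CoA synthetases then join them to coenzyme A, which traps them and commits them to membrane lipids, storage or oxidation, and CPT1A passes the acyl group to carnitine for entry into mitochondria. In T cells, regulatory and memory cells are known for fatty acid oxidation, whereas Th17 cells are known to depend on fatty acid synthesis.

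The libraries matched their titles at the targeted genes, by the probe set used for each. Stat5a was at 5.91 in STAT5-deficient and 10.92 in STAT5 wild-type cells, Stat5b at 6.09 and 11.33 on those arrays, and Stat3 at 9.93 in STAT3-deficient and 12.87 in STAT3 wild-type cells. Stat3 thus stayed above background where it was deleted, as did Stat5b by its second probe set (6.87 in STAT5-deficient cells). Of 4 Stat3 probe sets, 2 were lower past 2-fold without STAT3, and the others differed by -0.22 and -0.41. The first of these others was also lower without STAT5, at -1.19. All 7 measured T cell markers, Cd4 among them, lay above the background level on all 4 arrays, while 0 of 2 NK cell markers did so on any. Of the other lineages, 2 of 2 CD8 T cell and 2 of 4 B cell markers lay above it on at least 1 array. On all 4 arrays, 1 CD8 T cell marker (Cd8b1) and 1 B cell marker (Cd22) did so. Array medians lay between 6.10 and 6.34. Under the background level 99.9% of the deposited values on each array were shared with other probe sets. The median step between neighbouring values there was 0.028 to 0.031, small beside a difference of 1. By a choice made here, which these steps do not settle, levels under 6.20 were read as not distinguishable from background. The fold change of a gene with 1 side under 6.20 is therefore also given as a lower bound, with that side raised to 6.20.

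The promoter windows of Cd36 and Acsl6, the members past 2-fold, are shown because both genes were well apart between arrays. They come from RefSeq (GRCm38.p6), run from 250 bases before to 50 after an annotated start, and have the bases from that start onward in capitals.
Cd36, chr5:17835847-17836146, minus strand: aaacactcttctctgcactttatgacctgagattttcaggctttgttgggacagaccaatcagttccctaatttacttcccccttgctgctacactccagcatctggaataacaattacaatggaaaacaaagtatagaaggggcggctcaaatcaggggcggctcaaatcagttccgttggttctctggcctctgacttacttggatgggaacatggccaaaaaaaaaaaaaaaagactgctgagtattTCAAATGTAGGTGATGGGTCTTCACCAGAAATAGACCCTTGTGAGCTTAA
Acsl6, chr11:54303574-54303873, plus strand: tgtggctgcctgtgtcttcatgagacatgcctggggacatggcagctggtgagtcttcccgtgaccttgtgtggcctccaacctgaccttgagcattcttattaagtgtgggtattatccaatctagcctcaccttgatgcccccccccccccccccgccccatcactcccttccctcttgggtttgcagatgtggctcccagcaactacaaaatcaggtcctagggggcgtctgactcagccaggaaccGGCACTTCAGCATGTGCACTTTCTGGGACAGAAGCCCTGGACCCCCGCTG
The Cd36 window lies inside the RefSeq span of the gene, and Acsl6 has 3 windows, of which the 1 with a motif match is printed. The palindrome TTCNNNGAA, which STAT proteins are known to bind and which reads the same on both strands, occurred in 0 of the 10 windows of the 7 genes and in 8.30% of 32851 windows of the same length. The palindrome TGANTCA, known from AP-1 factors and searched only after the letters had been read, occurred in 1 of the 10, the Acsl6 window shown, where it begins 17 bases before the start, and in 7.81% of all windows. A missing match says only that the letters are not in these bases.

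Of the members, Cd36 was the 1 seen above background in a single culture, STAT5 wild type with IL-2. CD36 is a scavenger receptor that binds long-chain fatty acids and oxidised lipoproteins and is well known from macrophages, adipocytes and platelets. The probe set with the highest mean read 4.31 in STAT5-deficient, 7.32 in STAT5 wild-type, 4.47 in STAT3-deficient and 3.54 in STAT3 wild-type cells. The second probe set gave the same picture, at 4.26, 6.86, 4.41 and 4.05 on those arrays. The third stayed under the background level throughout, between 3.37 and 3.77. Both responding probe sets thus placed STAT5 wild type above the other 3 cultures, which all lay under background.

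**Figure D1:**
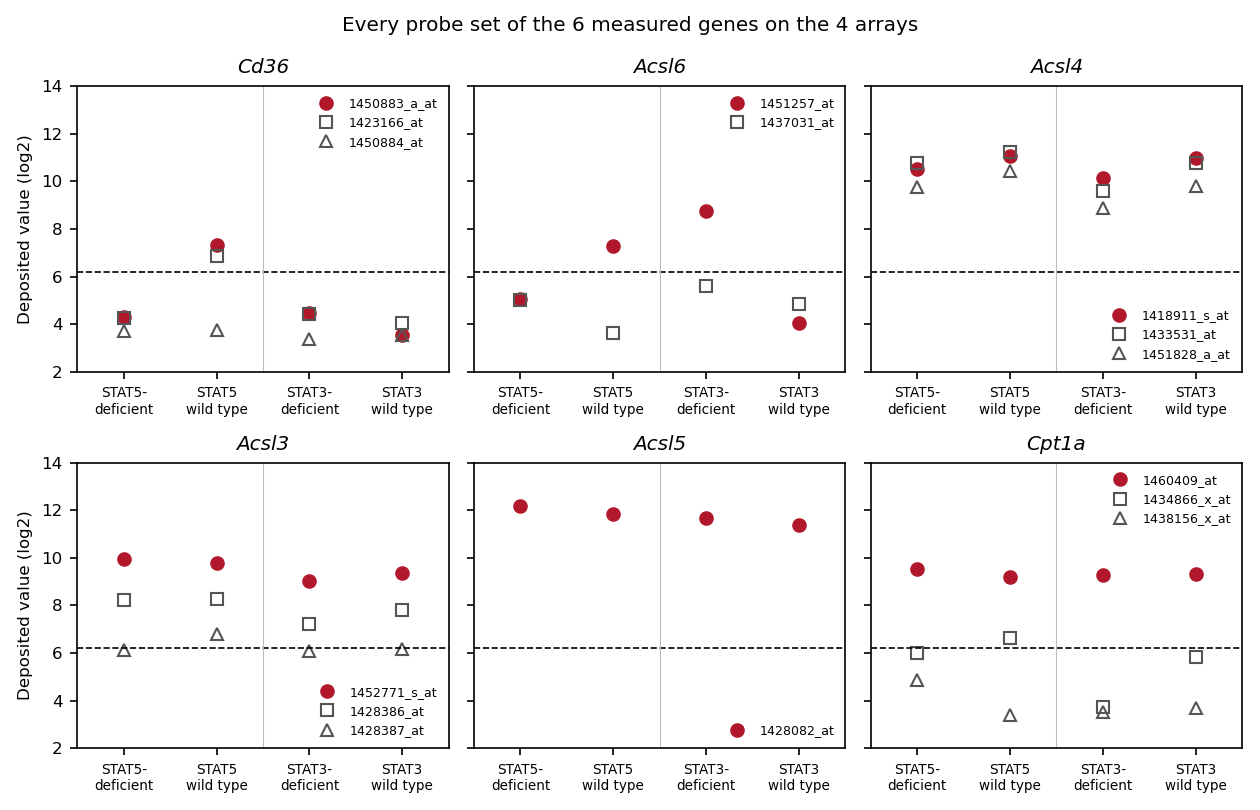
Deposited log2 level (y axis) of every probe set of the 6 measured genes on the 4 arrays (x axis, 1 point per array); red marks the probe set used for the gene and the dashed line the background level of 6.20. Cd36 passes the line in STAT5 wild-type cells and Acsl6 in STAT5 wild-type and STAT3-deficient cells, while Acsl4 and Acsl5 lie above it on all arrays.

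Cd36 was lower in STAT5-deficient than in STAT5 wild-type cells, with a log2 difference of -3.01 (8.04-fold, at least 2.18-fold against the background level). By the second probe set the difference was -2.60, at least 1.58-fold. Between the controls, Cd36 was 3.78 higher in STAT5 wild-type cells with IL-2 than in STAT3 wild-type cells with IL-2 neutralised (at least 2.18-fold). That difference shares the STAT5 wild-type array with the deletion comparison, and the floxed line changes along with IL-2, so line and cytokine cannot be told apart. Without STAT3 the difference was 0.93, with both sides under background. In bulk RNA of a culture, fewer expressing cells and less RNA per cell cannot be told apart.

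Markers of other cells known for Cd36 were set beside it. Of 8 myeloid markers, 3 lay above background on all arrays and 5 on at least 1. Their mean level was 5.96 in STAT5-deficient, 5.86 in STAT5 wild-type, 5.97 in STAT3-deficient and 6.02 in STAT3 wild-type cells. Csf1r, Cd68 and Msr1, genes of monocytes and macrophages, lay above background on all 4 arrays. Cd14, Itgam and Adgre1, also known from these cells, stayed under it on all 4. Of 5 platelet and megakaryocyte markers, 3 lay above background on all arrays, with means of 6.00, 6.16, 5.90 and 6.14 in the same order of cultures. Of the 5, Pf4, a platelet chemokine, read 5.02 in STAT5-deficient and 6.32 in STAT5 wild-type cells. On the STAT3-deficient and STAT3 wild-type arrays it read 4.81 and 5.14. In STAT5-deficient and STAT5 wild-type cells Itga2b read 7.76 and 7.89, Gp9 7.18 and 6.81, Gp1bb 6.72 and 6.67 and Ppbp 3.31 and 3.09. Thus Gp9, Gp1bb and Ppbp lay lower in STAT5 wild-type cells, and Pf4 and Itga2b higher. The part of Pf4 in the Cd36 result was not tested. Of 4 adipocyte and endothelial markers, Pecam1 and Kdr, both of endothelial cells, lay above background on all arrays, and Cdh5 and the adipocyte hormone gene Adipoq on none. Their mean was 5.77 in STAT5-deficient, 5.60 in STAT5 wild-type, 6.13 in STAT3-deficient and 6.38 in STAT3 wild-type cells. The part of these cells in the Cd36 result was not tested.

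Acsl6 had the widest range of the members. ACSL6 activates long-chain and polyunsaturated fatty acids and is best known from brain and red cell precursors. Its main probe set read 5.06 in STAT5-deficient and 7.29 in STAT5 wild-type cells, and 8.76 in STAT3-deficient and 4.05 in STAT3 wild-type cells. It was therefore above background in STAT5 wild-type cells and highest in STAT3-deficient cells, and under background in the other cultures. The second probe set lay under background on all 4 arrays, at 5.02, 3.62, 5.60 and 4.84 in the same order of cultures, and within the STAT5 pair it ran the other way. The Acsl6 results thus rest on 1 probe set.

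Without STAT3, Acsl6 was 4.71 higher (26.2-fold, at least 5.90-fold against the background level). Without STAT5 it was lower, at -2.23 (4.70-fold, at least 2.14-fold). The 2 deletion comparisons share no array. Over all genes, 22 of 12440 (0.177%) were higher past 2-fold without STAT3 and lower past 2-fold without STAT5. The reverse pattern was shown by 69 genes (0.555%). Between the controls Acsl6 was 3.25 higher in STAT5 wild-type than in STAT3 wild-type cells (at least 2.14-fold). Of the 4 measured erythroid markers, Epor and Ermap lay above background on all arrays and Alas2 and Klf1 on none. Their mean was 6.34 in STAT5-deficient and 6.22 in STAT5 wild-type cells, and 6.13 in STAT3-deficient and 6.58 in STAT3 wild-type cells, and the part of such cells in the Acsl6 result was not tested.

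**Figure D2:**
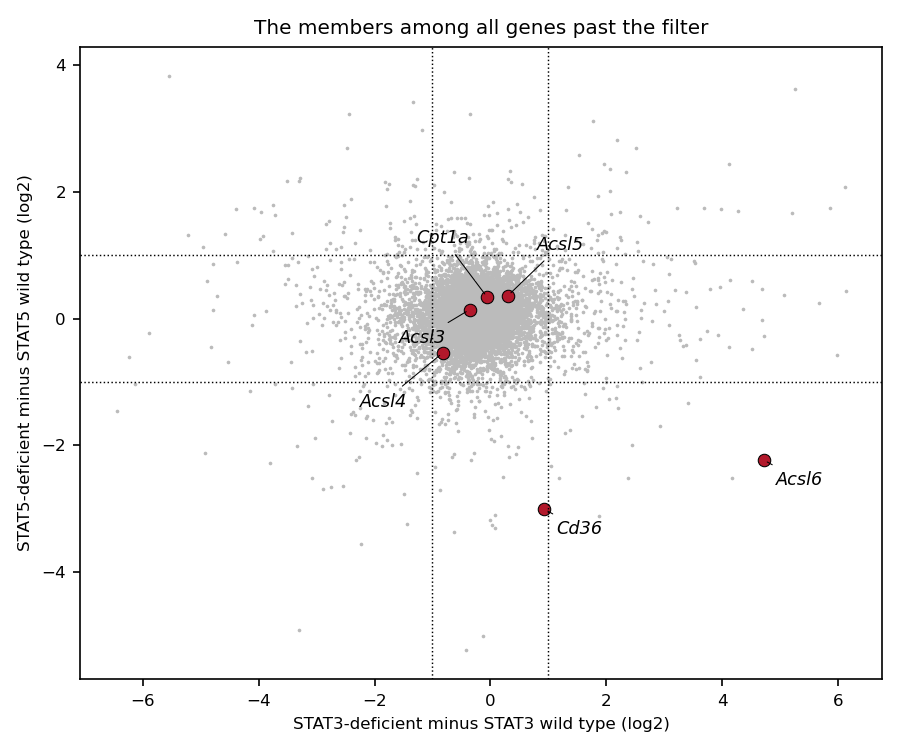
Difference without STAT3 (x axis, log2) against difference without STAT5 (y axis, log2) for 12440 genes (grey), with the 6 members in red and dotted lines at 2-fold. Acsl6 lies at 4.71 and -2.23, Cd36 at 0.93 and -3.01, and the other 4 members inside 2-fold on both axes.

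Acsl4 was the member that was lower in both deletions, short of 2-fold by its main probe set. ACSL4 prefers arachidonic acid and is known for making cells sensitive to ferroptosis. The 4 cultures read 10.51 (STAT5-deficient), 11.05 (STAT5 wild type), 10.15 (STAT3-deficient) and 10.98 (STAT3 wild type). The differences were -0.82 without STAT3 and -0.54 without STAT5, and 0.08 between the controls. All 3 probe sets of Acsl4 lay above background on every array, and the other 2 gave -1.18 and -0.93 without STAT3 and -0.46 and -0.66 without STAT5. The sign was thus shared by all 3 in both comparisons. The first of these 2 passed 2-fold without STAT3 as deposited, but fell short of it relative to the median gene, which lay at -0.20.

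Acsl5, which encodes a synthetase of mitochondria and endoplasmic reticulum, was above background on every array by its 1 probe set. It read 12.18 in STAT5-deficient, 11.82 in STAT5 wild-type, 11.66 in STAT3-deficient and 11.36 in STAT3 wild-type cells. The differences of 0.36 without STAT5, 0.30 without STAT3 and 0.46 between the controls all stayed under 2-fold.

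Acsl3, whose product sits on the endoplasmic reticulum and on nascent lipid droplets, read 9.93 in STAT5-deficient, 9.79 in STAT5 wild-type, 9.01 in STAT3-deficient and 9.37 in STAT3 wild-type cells. The differences were 0.14 without STAT5, -0.36 without STAT3 and 0.42 between the controls. Its other 2 probe sets differed by -0.04 and -0.67 without STAT5, so the sign there was not shared. All 3 lay higher in STAT5 wild-type than in STAT3 wild-type cells, by 0.42 to 0.62.

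Cpt1a, the gated step of mitochondrial fatty acid oxidation, varied least among the members. Its main probe set read 9.53 in STAT5-deficient, 9.19 in STAT5 wild-type, 9.26 in STAT3-deficient and 9.32 in STAT3 wild-type cells, a range of 0.34. It differed by 0.34 without STAT5 and by -0.05 without STAT3, a sign that turned when arrays were centred (0.19). The other 2 probe sets, both of the class that can match several transcripts, lay under background on all arrays or on 3 of 4. One of them was at 3.72 in STAT3-deficient and 5.83 in STAT3 wild-type cells, both under background.

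Over the 6 genes, 1 was higher and 0 lower without STAT3, beside 10.1% of all genes called in either direction. Without STAT5, 0 were higher and 2 lower, beside 3.60% of all genes, and between the controls 2 were higher and 0 lower, beside 5.30%. The members were listed with these values known and 2 of them passed the filter through their high arrays, so nothing is read from these counts. The median difference of the members was 0.12 without STAT3, -0.20 without STAT5 and 0.44 between the controls, against -0.20, 0.06 and 0.06 over all genes. Relative to the median gene without STAT3, Acsl6 stood at 4.91, Cd36 at 1.13, Acsl5 at 0.50, Cpt1a at 0.15, Acsl3 at -0.16 and Acsl4 at -0.62. The levels of Acsl3, Acsl4, Acsl5 and Cpt1a spanned 0.34 to 0.92 over the 4 arrays, and with no replicate neighbouring levels in their order cannot be told apart.

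**Figure D3:**
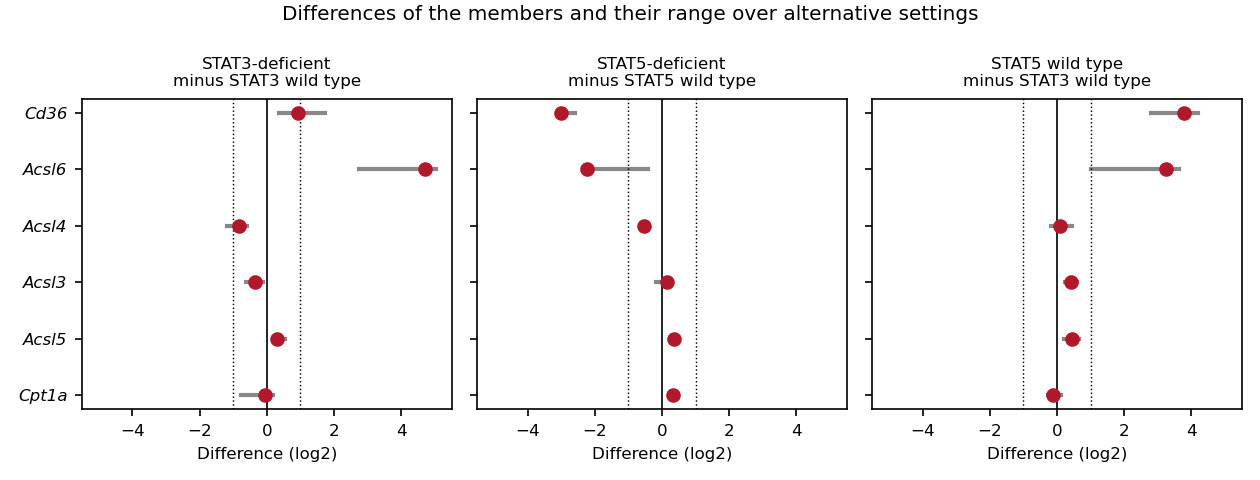
Log2 difference (x axis) of the 6 members in the 3 comparisons; points are the values reported, grey bars the range over the alternative settings, and dotted lines 2-fold. Acsl6 passes 2-fold in all 3 comparisons, and Cd36 without STAT5 and between the controls. The bar of Acsl6 without STAT5 reaches -0.41 when its probe sets are averaged. The bars of Cd36 leave that setting out, because Cd36 then fell under the filter, so they rest on 3 settings against 4 for the other members.

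The genes whose 4 levels ran most like those of Cd36 were C1s1, a complement protease, Atf3, a stress-induced transcription factor, and F3, tissue factor. Likeness was the Euclidean distance between the 4 levels, each taken from its gene's own mean, and it was 0.68, 0.75 and 0.80 for these genes. C1s1 read 4.26 in STAT5-deficient, 7.44 in STAT5 wild-type, 4.15 in STAT3-deficient and 4.15 in STAT3 wild-type cells. For Acsl6 the nearest were Csf2, which encodes the cytokine GM-CSF (1.13), Ncf1, of the NADPH oxidase complex (1.24), and Iigp1, an interferon-induced GTPase (1.34). With 4 arrays the measure describes these cultures only.

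Csf2 is also a neighbour of Acsl6 on chromosome 11. In RefSeq order the protein-coding genes there run Csf2, Il3, Acsl6 and Meikin. The neighbours were looked up after Csf2 had been seen among the nearest genes. Csf2 read 5.84 in STAT5-deficient and 8.36 in STAT5 wild-type cells, and 10.45 in STAT3-deficient and 6.29 in STAT3 wild-type cells. It was 4.17 higher without STAT3 (18.0-fold) and lower without STAT5, at -2.52 (at least 4.47-fold). Il3, which encodes interleukin-3 and lies between Csf2 and Acsl6, read 5.10, 5.58, 8.82 and 4.31 in STAT5-deficient, STAT5 wild-type, STAT3-deficient and STAT3 wild-type cells. It was 4.51 higher without STAT3 (at least 6.16-fold), and its level in both STAT5 cultures was under background.

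**Figure D4:**
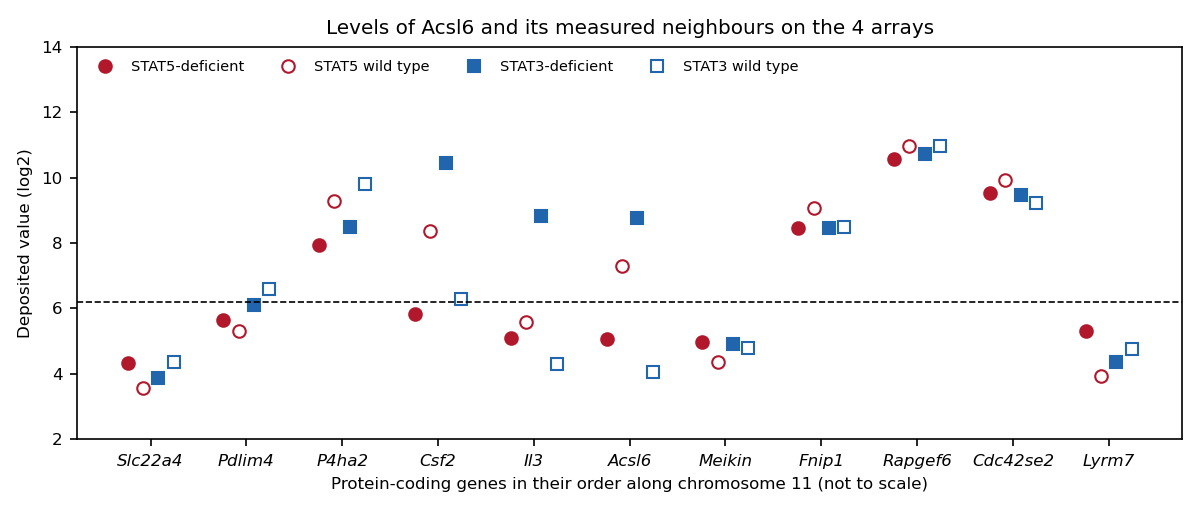
Deposited log2 levels (y axis) of Acsl6 and the 5 protein-coding genes on each side in their order on chromosome 11 (x axis, not to scale), 1 point per array, with the background level dashed. Csf2, Il3 and Acsl6 are highest in STAT3-deficient cells, at 10.45, 8.82 and 8.76.

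Of the 10 neighbours of Acsl6, 7 passed the filter. Without STAT3, 2 were called higher, Csf2 and Il3, and 1 lower, beside 10.1% of all genes called in either direction. The neighbours were looked up after Csf2 had been seen, so nothing is read from this count. P4ha2, a collagen prolyl hydroxylase gene, was lower in both deletions, at -1.30 without STAT3 and -1.36 without STAT5. On the other side Fnip1, Rapgef6 and Cdc42se2 differed by -0.03, -0.25 and 0.24 without STAT3, and Meikin lay under background on all arrays. On chromosome 5 around Cd36, 5 of 10 neighbours had a probe set of their own and 3 passed the filter. Of these 3, 0 were called in any of the 3 comparisons. The shares of all genes called were 10.1% without STAT3, 3.60% without STAT5 and 5.30% between the controls, so 0 of 3 genes says little.

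The rest of the pathway was described through 9 lists of 147 genes, of which 103 passed the filter. Without STAT3, 3 were higher and 8 lower (10.7%, beside 10.1% of all genes), with a median of -0.23 against -0.20 over all genes. Without STAT5, 2 were higher and 4 lower (5.83%, beside 3.60%), and between the controls 3 were higher and 1 lower (3.88%, beside 5.30%). The same shares of all genes, 10.1%, 3.60% and 5.30%, stand beside the counts of the single lists below. With 6 to 21 genes past the filter in each list, nothing is read from those counts.

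Among 13 genes of fatty acid uptake and binding, Vldlr, a lipoprotein receptor, was lower in both deletions. It read 6.46 in STAT5-deficient and 7.62 in STAT5 wild-type cells (-1.16), and 6.65 in STAT3-deficient and 7.69 in STAT3 wild-type cells (-1.04, or -0.84 relative to the median gene). Slc27a5, a fatty acid transport protein, was at -1.07 without STAT3 (-0.87 relative to the median gene), but its level of 5.27 in STAT3-deficient cells was under background, and the bound of at least 1.10-fold lies short of 2-fold. Cav1, which encodes caveolin-1, was 1.28 higher without STAT5, with the level in STAT5 wild-type cells under background and a bound of at least 1.42-fold, also short of 2-fold. Lrp8, another lipoprotein receptor, was 1.21 higher in STAT5 wild-type than in STAT3 wild-type cells. The list had 0 higher and 2 lower without STAT3, 1 and 1 without STAT5, and 1 and 0 between the controls. Over all genes 10.1%, 3.60% and 5.30% were called in these comparisons.

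Of 6 other acyl-CoA synthetases past the filter, 1 was lower without STAT3 and 1 without STAT5, and 0 were higher. Beside these stand 10.1% and 3.60% of all genes called in either direction. Acsbg1, an acyl-CoA synthetase of the bubblegum family, read 8.22 in STAT3-deficient and 9.92 in STAT3 wild-type cells (-1.71), and 9.78 in STAT5-deficient and 9.54 in STAT5 wild-type cells. Acss2, which activates acetate, was lower without STAT5 at -1.002, and at 0.82 between the controls.

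In the carnitine shuttle list 0 of 7 genes passed 2-fold in any comparison, and the farthest were Crot at -0.46 without STAT3 and Mlycd, which removes the CPT1 inhibitor malonyl-CoA, at 0.47 without STAT5 and -0.60 between the controls. Of 18 genes of mitochondrial beta-oxidation, Eci1, an enoyl-CoA isomerase, was 1.18 higher without STAT3, and 0 passed in the other comparisons, where Acadm (0.58 without STAT5) and Etfb (0.92 between the controls) lay farthest out. In the peroxisomal list of 10, Amacr, a racemase of branched acyl-CoA, was at -1.35 and Abcd3, a peroxisomal transporter, at 1.04 without STAT3. Acaa1b, a peroxisomal thiolase, was at -1.82 there with both sides under background, and 2.15 higher without STAT5 (at least 2.07-fold). Of 9 acyl-CoA thioesterases 0 passed 2-fold, with Acot13 at -0.82 without STAT3 and Acot3 at 0.25 without STAT5 and -0.78 between the controls.

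Without STAT3, the largest differences among the 103 listed genes were those of Mgll and Dgat1. Dgat1, which makes triacylglycerol from acyl-CoA, read 9.15 in STAT3-deficient and 12.03 in STAT3 wild-type cells (-2.88, 7.36-fold), and Plin2, a lipid droplet coat protein, 10.21 and 11.69 in these (-1.48). In the 21 genes of that list 0 were higher and 2 lower without STAT3. Lpin2 (0.99) and Dgat2 (0.94) lay just short of 2-fold higher there, where the median gene lay at -0.20. Agpat3, an acyltransferase of phospholipid synthesis, was the 1 called without STAT5 (-1.03). Between the controls Agpat3 was at 1.25 and Dgat1 at -1.55. Of 7 lipolysis genes, Mgll, the monoacylglycerol lipase, read 6.68 in STAT3-deficient and 10.01 in STAT3 wild-type cells (-3.33, 10.04-fold). Lipe, the hormone-sensitive lipase, was lower without STAT5 (7.67 in STAT5-deficient and 8.94 in STAT5 wild-type cells, -1.27) and 1.64 higher in STAT5 wild-type than in STAT3 wild-type cells.

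Of 12 regulators of fatty acid use, Rxra, which encodes the partner receptor of PPARs, was the 1 past 2-fold, at 1.47 without STAT3. Its other probe sets gave 0.06 and 0.54, so the increase rests on 1 of 3. Ppard, a fatty acid receptor, lay farthest out without STAT5 at -0.71, with its other probe set at 0.37, and Nr1h3, an oxysterol receptor, between the controls at -0.76.

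**Figure D5:**
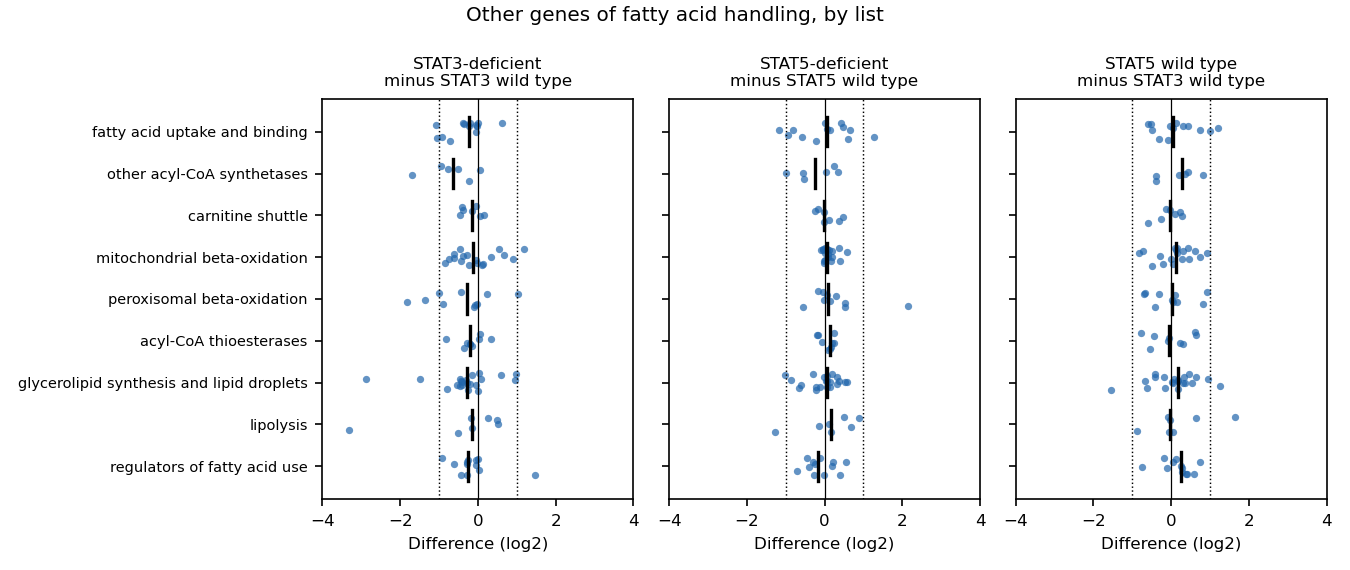
Log2 difference (x axis) of the 103 genes past the filter, by list (y axis), in the 3 comparisons; each point is a gene, black bars are list medians and dotted lines 2-fold. Mgll (-3.33) and Dgat1 (-2.88) lie farthest to the left without STAT3, and most genes lie inside 2-fold.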

How the data were processed

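Total RNA of 4 cultures was hybridised to Affymetrix mouse expression arrays. The deposited values, 1 for each probe set and array, lay between 2.48 and 15.09 and were read as log2 levels. Per the submitters' processing notes they were made with Affymetrix Power Tools. The sources used here do not give the version, algorithm, normalization, background correction or logarithm base, and another base would change every fold. Groups come from the sample titles.

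Of 45101 probe sets, 34958 carry 1 gene in the platform annotation and 932 several, and the other 9211 are unnamed here. Entrez identifiers were checked against RefSeq genes of GRCm38.p6 (99.4% matched, 0 symbols changed). Each gene was represented by the probe set of its own with the greatest average level. The filter asked for a highest value above 6.20 (percentile 50). Differences are between single arrays, with no test, and are called at 2-fold. The calling step was tested on simulated data with known shifts well past the threshold. That checks the code and says nothing of the noise between single arrays.

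The members and lists were chosen with earlier results of these data known. Genes named are the members, the targeted genes, up to 4 genes per list and comparison past 2-fold (else the farthest) and the 3 nearest genes by profile; Csf2, Il3, their neighbours and single markers were named after their values were seen. Protein sequences were not used here. Tools were Python 3.11.15, pandas 2.3.3 and statsmodels 0.14.6. The alternatives tried were averaging probe sets by gene, dropping those of a class that may match other transcripts, centring arrays on their medians or by intensity (loess, span 0.4), no filter, a filter at percentile 75 (8.29) and thresholds of 1.5-fold and 3-fold.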

Additional observations from a re-analysis of the deposited data

Results flagged for a closer look

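Acsl6 was called in opposite directions in the 2 deletions: it differed by 4.71 without STAT3 (8.76 in STAT3-deficient and 4.05 in STAT3 wild-type cells) and by -2.23 without STAT5 (5.06 in STAT5-deficient and 7.29 in STAT5 wild-type cells). With 1 array per group the difference between these effects was not tested, IL-2 was neutralised in the first pair and added in the second, and the call rests on 1 of 2 probe sets.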

How the results depend on the processing

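No paired analysis was possible because each group has 1 array. Under 4 ways of summarising or scaling, 65 of 69 member differences kept their side of 2-fold, and 0 called differences changed sign. The exceptions were Acsl6 without STAT5 (-0.41 with probe sets averaged), Acsl4 without STAT3 (-1.18 without probe sets that can match several transcripts) and Cd36 without STAT3 (1.17 with arrays centred, 1.73 with intensity-dependent centring, both sides under background as deposited). Averaging probe sets left 0 members called without STAT5 and 1 between the controls, since Cd36 then fell under the filter and Acsl6 without STAT5 under 2-fold. Without STAT3, 2 members were called without multiply matching probe sets, 2 under either centring and 3 at 1.5-fold. The filter at percentile 75 removed Cd36 and left 1 member called without STAT5 and 1 between the controls.

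Over all genes, 1254 were called without STAT3, 448 without STAT5 and 659 between the controls. These counts were 774, 254 and 356 under the stricter filter, 3093, 1444 and 2584 at 1.5-fold and 522, 143 and 177 at 3-fold, and 679 without STAT5 with no filter. Of the genes called without STAT3, 71.8% were lower as deposited, 52.6% with arrays centred and 53.8% with intensity-dependent centring; between the controls these shares were 55.7%, 26.4% and 50.3%. Signal near background limits Cd36 and Acsl6, whose lower levels cannot be ordered. Of 240 recomputed list counts, 178 stayed within 1.5 times the value reported.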

Other observations

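The probe sets of Mgll, Dgat1 and Plin2, which were called lower without STAT3, were compared within each gene. These 3 do not stand for their lists. Without STAT3 the median was -0.28 for glycerolipid synthesis and lipid droplets and -0.15 for lipolysis, against -0.20 over all genes. In the first list 6 of 21 genes lay above 0, and in the second 3 of 7. Mgll has 4 probe sets, and all were lower without STAT3, by -1.39 to -4.02. Without STAT5 the same 4 lay between 0.40 and 0.99, all above 0 and short of 2-fold. Dgat1 has 2, at -2.88 and -1.54 without STAT3 and at 0.59 and 0.88 without STAT5. Plin2, with 1 probe set, was at -1.48 without STAT3 and 0.51 without STAT5. The difference between the deletions was not tested for these genes.

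Vldlr has 6 probe sets, all lower in both deletions. They lay between -0.10 and -1.04 without STAT3 and between -0.53 and -1.67 without STAT5. The median gene lay at -0.20 without STAT3, so the smallest of those differences (-0.10) was not lower relative to it. Of the 6 probe sets, 2 lay above background on at least 1 array. Without STAT5, 4 passed 2-fold, and 2 of those had both sides under background. Agpat3 has 4, all lower without STAT5, from -0.73 to -1.03, and all higher in STAT5 wild-type than in STAT3 wild-type cells, from 0.60 to 1.25. Acss2 was lower without STAT5 on all 3 of its probe sets, at -1.002, -1.60 and -0.68, the last with both sides under background.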
